A study of Mus musculus with 11 samples.

Results

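The genes described here are 42 genes of the cell cycle and of DNA replication, among 18305 genes of a mouse count table, followed through 27 RNA libraries of oviduct and ovarian surface epithelium (OSE), of organoids grown from both and of tumors. They were taken as a named list and not by a rule on their values, though with earlier results of these data known. By the phase in which each gene is usually most active, 16 were placed in an S phase list and 20 in a G2/M list, and the remaining 6 are the 3 D-type cyclins and the chromatin and tubulin genes *Hmgb2*, *Stmn1* and *Tubb5*.

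The study asked from which of both epithelia a model of high-grade serous ovarian cancer can be built. Normal oviduct tissue (3 libraries), OSE tissue (3), oviductal organoids (3) and OSE organoids (2) came from wild-type C57BL/6 mice, young adult females. Both kinds of organoids were kept in one medium with WNT and estrogen, and a further OSE organoid line had been removed by the submitters as contaminated. Oviductal organoids of another strain (3 lines, called Cas9-GFP organoids here) came from mice that carry Cas9 and EGFP in the ROSA26 locus and were not edited. TBP clones (3 libraries) are clonal oviductal lines of that strain with sgRNA-induced mutations that include *Trp53* and *Brca1* (heterozygous), picked after selection in Nutlin-3a, which spares cells without p53. TBP tumors (6 libraries) grew in NSG mice after such clones were injected, and tumor-derived organoids (4 lines) were grown from TBP tumors with Nutlin-3a in the medium. Of these lines T1-mes and T3-mes came from tumors with a mixed epithelial and mesenchymal look and T2-epi and T4-epi from glandular tumors. T1-mes and T2-epi came from neighboring tumors. The paper traces all 4 lines to the same original TBP clone, and they were counted as separate samples. The labels do not tie the 6 tumor libraries to clones or host mice, so tumors that share one were counted as separate samples. The paper describes 2 independent clones per combination of mutations. The 3 TBP clone libraries may therefore not be 3 separate clones, and they were counted as separate samples too. NSG mice lack lymphocytes but keep fibroblasts, vessels and myeloid cells, whose RNA is of mouse origin too and was read together with that of the tumor cells. The tissues and tumors were extracted with Trizol and all organoids with a column kit, so extraction and culture cannot be told apart.

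Dividing cells copy their DNA in S phase and share it out in mitosis. D-type and E-type cyclins, with their kinases, release E2F factors from the retinoblastoma protein, and E2F then switches on genes for loading and firing replication origins, while genes of mitosis are switched on later, through CHR elements and CCAAT boxes bound by the DREAM and B-MYB/FOXM1 complexes and by NF-Y. Because most of these transcripts are low in resting cells, their level in a bulk sample follows the share of dividing cells. The ovary holds follicles whose granulosa cells divide rapidly, whereas the oviduct is lined by secretory and ciliated cells that mostly rest.

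Promoter windows from RefSeq (GRCm38.p6), each with 250 bases before and 50 bases after the start, were available for 32 of the 42 genes (34 windows). For *Kif20a*, *Ccna2*, *Gins2*, *Stmn1*, *Aurkb*, *Ccnd2*, *Ccnd1*, *Ccne2*, *Tpx2* and *Mcm4* no entry was found. Letters of 3 elements were searched on both strands: E2F (TTTGGCGC or TTTCCCGC), CHR (TTTGAA or TTCGAA) and the CCAAT box (CCAAT). The E2F letters were in 6 of 14 windows of the S phase list (42.9%), in 0 of 16 of the G2/M list (0%) and in 1.56% of all 32851 windows. The CHR letters were in 12 of 16 windows of the G2/M list (75%), in 2 of 14 of the S phase list (14.3%) and in 19.2% of all windows. The CCAAT box was common in both, in 15 of 16 G2/M windows (93.8%) and 9 of 14 S phase windows (64.3%), against 37.4% of all windows. Both CHR and CCAAT letters stood in 75% of the G2/M windows and 7.52% of all windows. The windows with E2F letters were those of *Cdc6*, *Cdt1*, *Mcm3*, *Mcm5*, *Mcm6* and *Mcm7*. A match of letters is a description and does not show that a factor binds there.

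To show how the lists differ, the windows of 3 genes of each list follow, those with the largest drop in oviduct against OSE tissue among called genes with an entry, 5′ to 3′ along the gene, with all matched letters in capitals (on the minus strand they read GCGCCAAA, TTCAAA and ATTGG). *Mcm5* (chr8:75109259-75109558, plus strand) and *Mcm6* (chr1:128359656-128359955, minus strand) encode subunits of the replicative helicase and hold E2F letters. *Rrm2* (chr12:24708004-24708303, plus strand), the small subunit of ribonucleotide reductase, shows only a CCAAT box. *Ccnb1* (chr13:100786437-100786736, minus strand), cyclin B1, shows 2 CCAAT boxes. *Bub1b* (chr2:118597961-118598260, plus strand), a kinase of the spindle checkpoint, and *Ube2c* (chr2:164769679-164769978, plus strand), an enzyme that attaches ubiquitin for the anaphase-promoting complex, hold CHR letters, and in *Ube2c* one pair of CCAAT boxes on opposite strands overlaps.
Mcm5: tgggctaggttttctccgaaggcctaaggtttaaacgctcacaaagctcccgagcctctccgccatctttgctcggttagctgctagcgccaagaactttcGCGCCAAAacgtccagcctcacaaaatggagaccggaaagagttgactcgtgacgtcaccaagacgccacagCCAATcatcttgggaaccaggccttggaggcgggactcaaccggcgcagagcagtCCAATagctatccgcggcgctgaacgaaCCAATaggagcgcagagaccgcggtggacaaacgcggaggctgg
Mcm6: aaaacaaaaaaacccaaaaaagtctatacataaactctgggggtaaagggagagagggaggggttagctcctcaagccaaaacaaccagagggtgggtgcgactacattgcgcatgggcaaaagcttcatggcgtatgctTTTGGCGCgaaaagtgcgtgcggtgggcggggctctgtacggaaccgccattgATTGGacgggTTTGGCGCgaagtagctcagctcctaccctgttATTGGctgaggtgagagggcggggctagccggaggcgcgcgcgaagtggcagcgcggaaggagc
Rrm2: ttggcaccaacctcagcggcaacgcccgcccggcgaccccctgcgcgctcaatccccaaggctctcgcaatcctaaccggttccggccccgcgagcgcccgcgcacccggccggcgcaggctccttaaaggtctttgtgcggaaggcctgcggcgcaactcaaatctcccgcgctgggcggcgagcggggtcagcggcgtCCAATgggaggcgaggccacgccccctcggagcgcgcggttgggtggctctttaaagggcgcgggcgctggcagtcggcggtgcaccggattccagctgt
Ccnb1: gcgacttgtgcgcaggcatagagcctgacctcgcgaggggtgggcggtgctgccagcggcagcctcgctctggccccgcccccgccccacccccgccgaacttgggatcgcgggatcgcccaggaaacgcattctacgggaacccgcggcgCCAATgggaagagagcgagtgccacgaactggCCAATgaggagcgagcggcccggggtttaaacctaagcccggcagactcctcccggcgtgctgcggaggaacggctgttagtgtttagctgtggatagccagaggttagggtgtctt
Bub1b: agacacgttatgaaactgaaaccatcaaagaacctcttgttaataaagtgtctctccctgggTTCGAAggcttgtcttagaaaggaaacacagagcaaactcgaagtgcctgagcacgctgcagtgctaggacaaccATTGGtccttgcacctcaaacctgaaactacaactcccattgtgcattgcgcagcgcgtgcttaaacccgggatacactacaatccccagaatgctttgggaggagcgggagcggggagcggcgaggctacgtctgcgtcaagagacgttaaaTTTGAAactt
Ube2c: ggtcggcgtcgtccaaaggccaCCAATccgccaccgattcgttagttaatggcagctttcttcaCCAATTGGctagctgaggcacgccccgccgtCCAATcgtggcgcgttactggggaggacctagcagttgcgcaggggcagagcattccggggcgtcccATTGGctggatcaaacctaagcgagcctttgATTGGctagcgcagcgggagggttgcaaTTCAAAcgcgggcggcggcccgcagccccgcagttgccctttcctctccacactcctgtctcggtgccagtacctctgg

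RNA was sequenced by CEL-Seq2, which reads the 3′ end of transcripts, and the values are whole read counts per gene without collapsing of molecular identifiers, so that limits from counting cover counting error only. Total counts ran from 82239 in TBP clone 1 and 600579 in the next shallowest library to 4531767 in TBP clone 3. In clone 1, 3 counts (the most that a count of 0 was taken to allow) are worth 33.5 CPM (the usual count scaled to library size, here with TMM factors), and 11 of the 42 genes had no count. Levels below are CPM, and changes are log2 fold changes with their standard errors from edgeR's quasi-likelihood test, a gene being called at an adjusted p under 0.05. *Trp53*, the targeted gene in the check of labels, had 34.5 to 61.0 CPM in Cas9-GFP organoids and 0, 0.536 and 5.02 CPM in TBP clones. It had 19.7 to 25.7 CPM in oviduct tissue, 4.37 to 9.22 CPM in tumor-derived organoids and 18.3 to 57.1 CPM in TBP tumors. By this gene the tumor libraries were therefore not separated from unedited samples, and the part of host cell RNA in them was not tested. The labelled OSE tissue was checked against cell type markers: 6 granulosa cell genes summed to 5116 to 5741 CPM and 5 steroidogenic genes to 6205 to 7611 CPM, against 369 to 439 CPM for 5 epithelial genes. Mesothelial and OSE genes were present but overlapped with oviduct tissue. *Wt1* had 257, 256 and 248 CPM in OSE tissue and 226, 271 and 181 CPM in oviduct tissue. *Msln* had 261, 161 and 142 CPM against 110, 150 and 75.8 CPM, and *Krt7*, *Lrrn4* and *Upk3b* overlapped too. In the OSE organoids the granulosa genes summed to at most 12.7 CPM and 3 of the 6 were at 0 in both lines. OSE organoids 2 stood apart, since 3 oviduct secretory genes summed to 3425 CPM in it and 62.6 CPM in OSE organoids 1, with *Ovgp1*, oviductal glycoprotein, at 3243 and 19.1 CPM and *Pax8* at 180 and 43.5 CPM (oviductal organoids, 14636 to 22938 and 165 to 186 CPM). The libraries labelled OSE tissue therefore hold much RNA of other ovarian cells, and every value of OSE tissue below is of that mixture.

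Summed over the 16 S phase genes, levels were 411, 457 and 239 CPM in the oviduct tissue libraries and 1285, 1046 and 1024 CPM in OSE tissue. The 20 G2/M genes summed to 337, 329 and 200.4 CPM in oviduct and 2069, 2211 and 2149 CPM in OSE tissue, so every OSE tissue library was several times above every oviduct library. In a bulk sample more dividing cells and more of such RNA per cell cannot be told apart. The G2/M sums were 529.7, 245 and 265 CPM in oviductal organoids, 984 and 302 CPM in OSE organoids and 1027, 371 and 699 CPM in Cas9-GFP organoids. They were 1821, 831 and 1235 CPM in TBP clones, 2660.4, 3340.1, 1414 and 3116 CPM in T1-mes, T2-epi, T3-mes and T4-epi and 782 to 1456 (median 1099) CPM in the TBP tumors. By mean the order of the G2/M sums was oviduct tissue, oviductal organoids, OSE organoids, Cas9-GFP organoids, TBP tumors, TBP clones, OSE tissue and tumor-derived organoids. The ranges of neighbors in that order overlapped, apart from TBP clones and OSE tissue. The S phase sums were 443, 229 and 259 CPM in oviductal organoids, 773 and 316 CPM in OSE organoids and 565, 309 and 673 CPM in Cas9-GFP organoids. They were 569.8, 401 and 1223 CPM in TBP clones, 2063, 1790.2, 1216 and 1031 CPM in the tumor-derived lines and 605 to 1238 (median 898) CPM in tumors. The S phase sum divided by the G2/M sum was highest in oviduct tissue (1.22, 1.39 and 1.20), with no overlap with any other group, and low in OSE tissue (0.621, 0.473 and 0.477).

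**Figure D1:**
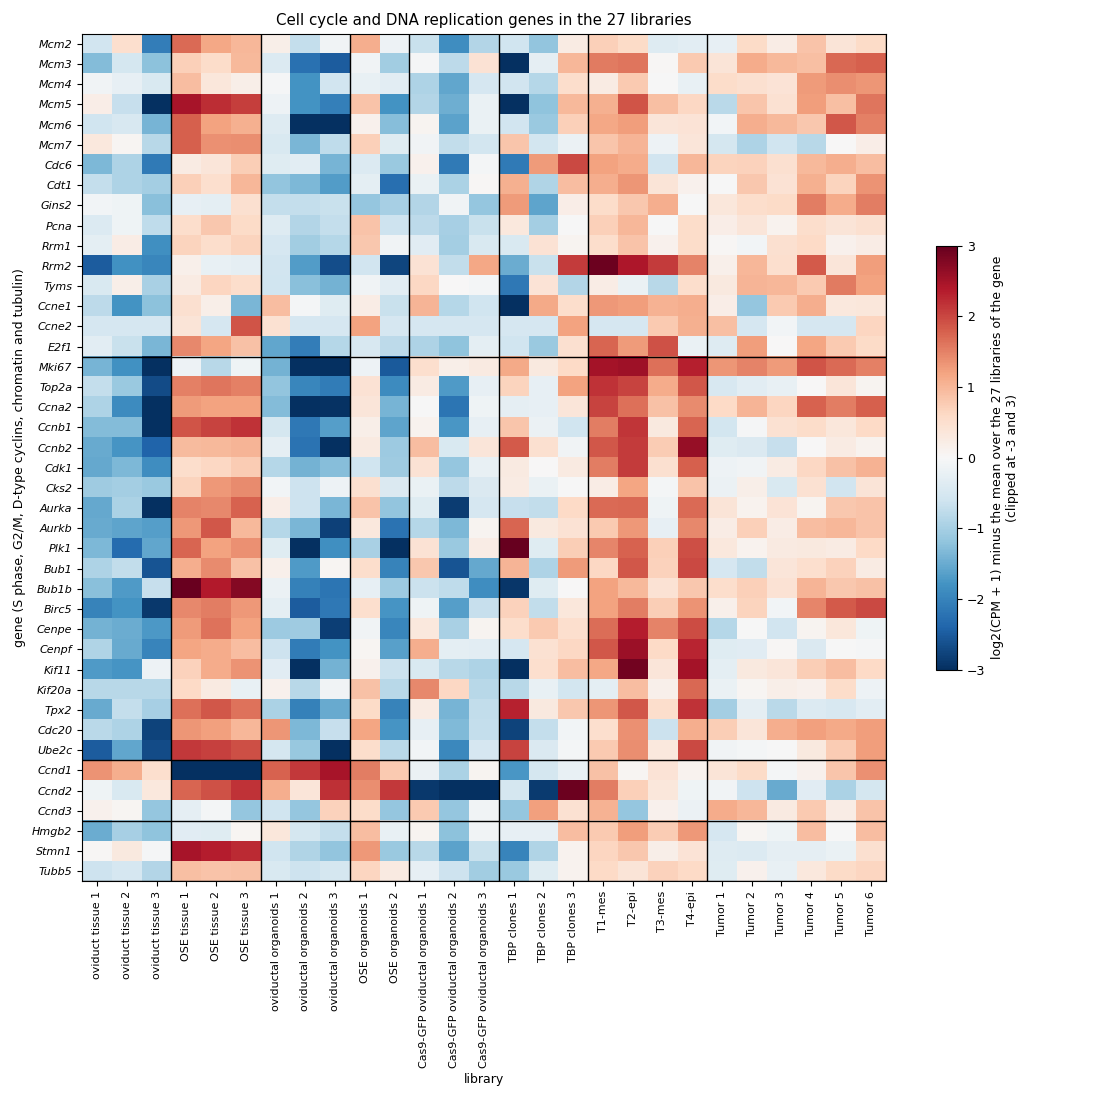
Level of each of the 42 genes (rows, by list) in each of the 27 libraries (columns, by group) as log2(CPM + 1) minus the mean of the gene over all libraries, with colors clipped at -3 and 3. OSE tissue and most tumor-derived lines are red in most S phase and G2/M rows, oviduct tissue and oviductal organoids 2 and 3 are blue, and *Ccnd1* runs the other way in OSE tissue.

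**Figure D2:**
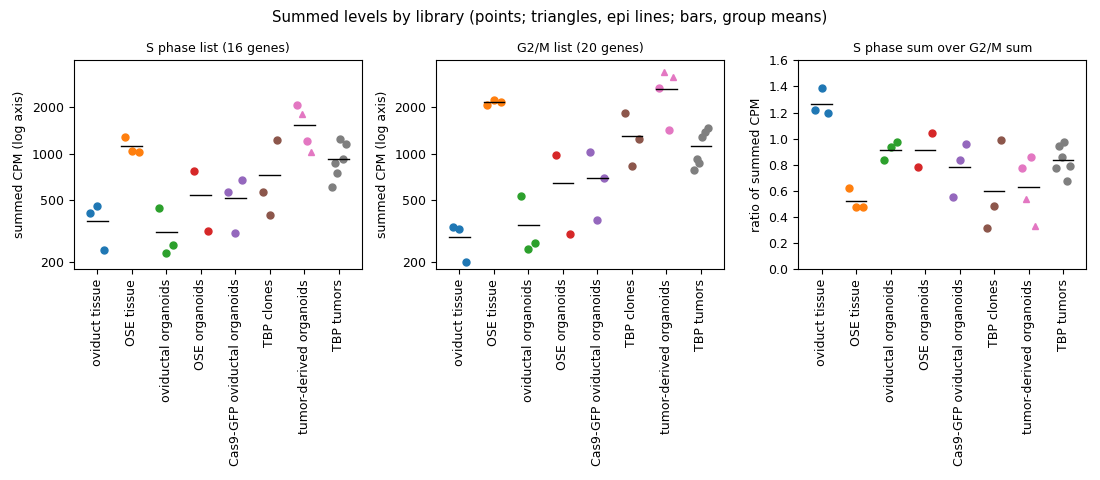
Summed CPM of the S phase list and of the G2/M list on log axes and the ratio of both sums, 1 point per library (triangles, epi lines) with group means as bars. G2/M sums run from 200.4 CPM in oviduct tissue 3 to 3340 CPM in T2-epi, whereas TBP clone 1 and T4-epi have the lowest ratios.

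Oviduct tissue stood below OSE tissue in most of the list. Of 36 genes tested, 33 were lower and 1 higher in oviduct, where 24.3% of all 8787 genes tested were called lower and 26.9% higher. All 19 G2/M genes tested were lower, as were 10 of the 12 S phase genes tested, and the medians were -2.85 and -1.71 on the log2 scale (-2.23 over the 36 genes and 0.00 over all genes). Among replication genes *Mcm5* had 13.1, 6.58 and 0 CPM in oviduct and 66.9, 55.9 and 50.4 CPM in OSE tissue, a difference of -2.89 ± 0.43 (adjusted p = 5.08e-05). *E2f1*, the factor that drives many S phase genes, had 13.8, 10.5 and 6.11 CPM against 49.1, 40.8 and 32.9 CPM (-1.89 ± 0.31, adjusted p = 0.000139). The groups did not overlap in either gene.

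Mitotic genes had the larger differences by median. *Ccnb1* had 14.5, 14.5 and 3.67 CPM in oviduct and 139, 154 and 169.8 CPM in OSE tissue (-3.73 ± 0.27, adjusted p = 4.08e-08). *Ube2c*, which acts at exit from mitosis, had 4.35, 9.21 and 3.67 CPM against 131, 123 and 114 CPM (-4.44 ± 0.28, adjusted p = 7.44e-09). *Birc5*, survivin of the chromosomal passenger complex, had 14.5, 17.1 and 7.33 CPM against 168, 179 and 154 CPM (-3.63 ± 0.24, adjusted p = 1.12e-08). In all 3 the highest oviduct library was far below the lowest OSE tissue library. *Bub1b*, *Aurkb* (the kinase of the same complex) and *Bub1* (a checkpoint kinase) had at most 3 counts in each oviduct library. The CPM from summed counts was 21.0 times as high in OSE tissue for *Bub1b* (95% exact interval 9.99 to 52.9), 12.0 times for *Aurkb* (4.48 to 45.6) and 6.93 times for *Bub1* (2.76 to 22.4). *Mcm4* and *Gins2*, both of the helicase complex, were not called (-0.76 and -0.46). *Stmn1*, which frees tubulin from microtubules, and *Tubb5*, a beta-tubulin of a family with similar copies among which reads may be split, were lower too (-2.24 and -1.52). The 34 calls held with each library left out in turn, except that *Bub1* fell under the filter without OSE tissue 1. The granulosa, steroidogenic and oocyte marker sums given for OSE tissue moved with these genes (74.0 to 137, 41.4 to 220 and 10.9 to 13.2 CPM in oviduct; oocyte genes 557 to 707 CPM in OSE tissue), and their part in the result was not tested.

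Few genes of the list were called between oviductal organoids and their tissue. Of 28 genes tested, 4 were higher in the organoids and 1 lower, with 18.7% of all genes called higher and 24.2% lower. Of the 10 S phase genes tested none was called (median -0.38), and of the 13 G2/M genes 1 was (median 0.40, all genes -0.02). That gene, *Cks2*, a small partner of cyclin-dependent kinases, had 35.6, 36.8 and 34.2 CPM in tissue and 70.6, 48.2 and 67.6 CPM in organoids (0.80 ± 0.23, adjusted p = 0.0133). The DNA-bending protein gene *Hmgb2*, of a family with similar copies, had 23.2, 32.9 and 28.1 CPM against 84.9, 45.7 and 40.0 CPM (1.03 ± 0.31, adjusted p = 0.0186), and *Stmn1* fell from 93.6, 112 and 89.2 to 59.6, 48.2 and 39.4 CPM (-1.01 ± 0.21, adjusted p = 0.00228). The groups did not overlap in any of these genes. *Mki67*, the gene of the Ki-67 antigen, had 14.5, 10.5 and 1.22 CPM in tissue and 14.3, 0 and 3.28 CPM in organoids, with overlapping groups (-0.51 ± 0.83, adjusted p = 0.656). Without oviduct tissue 1 the count of higher genes was 2 and without oviductal organoids 3 it was 7, and the count of lower genes was 3 without oviductal organoids 1 and 2 without oviduct tissue 3. Smooth muscle genes summed to 5434 to 6754 CPM in oviduct tissue and at most 6.68 CPM in the organoids, so the tissue libraries hold cells that the cultures lack, and their part in these values was not tested.

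OSE organoids stood below OSE tissue, with 14 of 37 genes tested lower and 1 higher (all genes, 18.6% and 14.5%). The lower genes were 6 of 13 S phase and 8 of 19 G2/M genes. Every tested gene of both lists had a negative value (medians -1.21 and -1.70), against 52.1% of all genes (median -0.06). *Plk1*, a kinase that drives entry into mitosis, had 82.1, 55.9 and 63.2 CPM in tissue and 11.4 and 1.01 CPM in the 2 lines (-3.53 ± 0.75, adjusted p = 0.0119). *Bub1b* had 57.5, 38.4 and 49.9 CPM against 5.34 and 2.53 CPM (-3.64 ± 0.43, adjusted p = 0.00166), and *Cdk1*, the mitotic kinase itself, 215, 231 and 254 CPM against 97.7 and 70.4 CPM (-1.46 ± 0.25, adjusted p = 0.00529). Neither line reached the lowest tissue library in any of these genes. Among replication genes *E2f1* (-1.89), *Mcm5* (-2.34) and *Cdt1*, which loads the helicase (-1.88), were lower. The 2 lines differed from each other: OSE organoids 1 was above OSE organoids 2, the line with oviduct secretory genes, in both sums. With line 1 left out 30 genes were lower, with line 2 left out 21, with OSE tissue 1, 2 or 3 left out 4, 5 and 4 were, and without line 2 the genes called higher numbered 2. Which cells of line 2 hold the oviduct secretory RNA, and their part in these counts, was not tested. *Bub1b* and *Ccnd1* kept their call under each alternative.

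The step from tissue to culture was then compared between both origins by an interaction term (positive where oviduct moved up relative to OSE). Of 37 genes tested, 6 were higher and 1 lower, with 5% of all genes higher and 6.68% lower. The 6 were G2/M genes: *Plk1* (4.04 ± 1.08, adjusted p = 0.03), *Bub1b* (3.93 ± 0.99, adjusted p = 0.0234), *Ube2c* (3.28 ± 0.83, adjusted p = 0.024), *Ccnb1* (3.09 ± 0.77, adjusted p = 0.0225), *Cks2* (1.97 ± 0.41, adjusted p = 0.00934) and *Cdk1* (1.96 ± 0.32, adjusted p = 0.00264). None of the 13 S phase genes tested was called (median 1.10, against 2.36 for the 19 G2/M genes and 0.04 for all genes). The count of 6 was 21 without OSE organoids 1, 9 without OSE organoids 2, 2 without OSE tissue 3 or oviductal organoids 1, and 3 without oviduct tissue 1 or OSE tissue 1 or 2. *Cdk1*, *Cks2* and *Ccnd1* kept their call under each alternative. The term uses the OSE tissue libraries with their granulosa cell RNA.

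Between the cultures of both origins no gene of the list was called among 33 tested. In all genes 0.0864% were higher in oviductal organoids and 0% lower, with 598 and 462 genes at an unadjusted p under 0.05. DESeq2 called 1 gene of the list lower, *Tubb5* (named after its values were seen), and without OSE organoids 2 edgeR called 8 lower, which compares 3 lines with 1 that is assumed to vary like the others. The median over the list was -0.78 (0.01 over all genes), and 28 of the 33 values were negative, against 49.2% of all genes. The genes were read in the same libraries, so their signs are not separate observations. *Ccna2*, cyclin A2, had 10.5, 1.69 and 2.62 CPM in oviductal and 35.1 and 9.63 CPM in OSE organoids (-2.03 ± 0.85, adjusted p = 0.432). The spread between lines was as wide as the difference: oviductal organoids 1 lay above OSE organoids 2 in this gene. OSE organoids 2 is the line with *Ovgp1* at 3243 CPM, and the part of the cells with this RNA in the result was not tested.

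**Figure D3:**
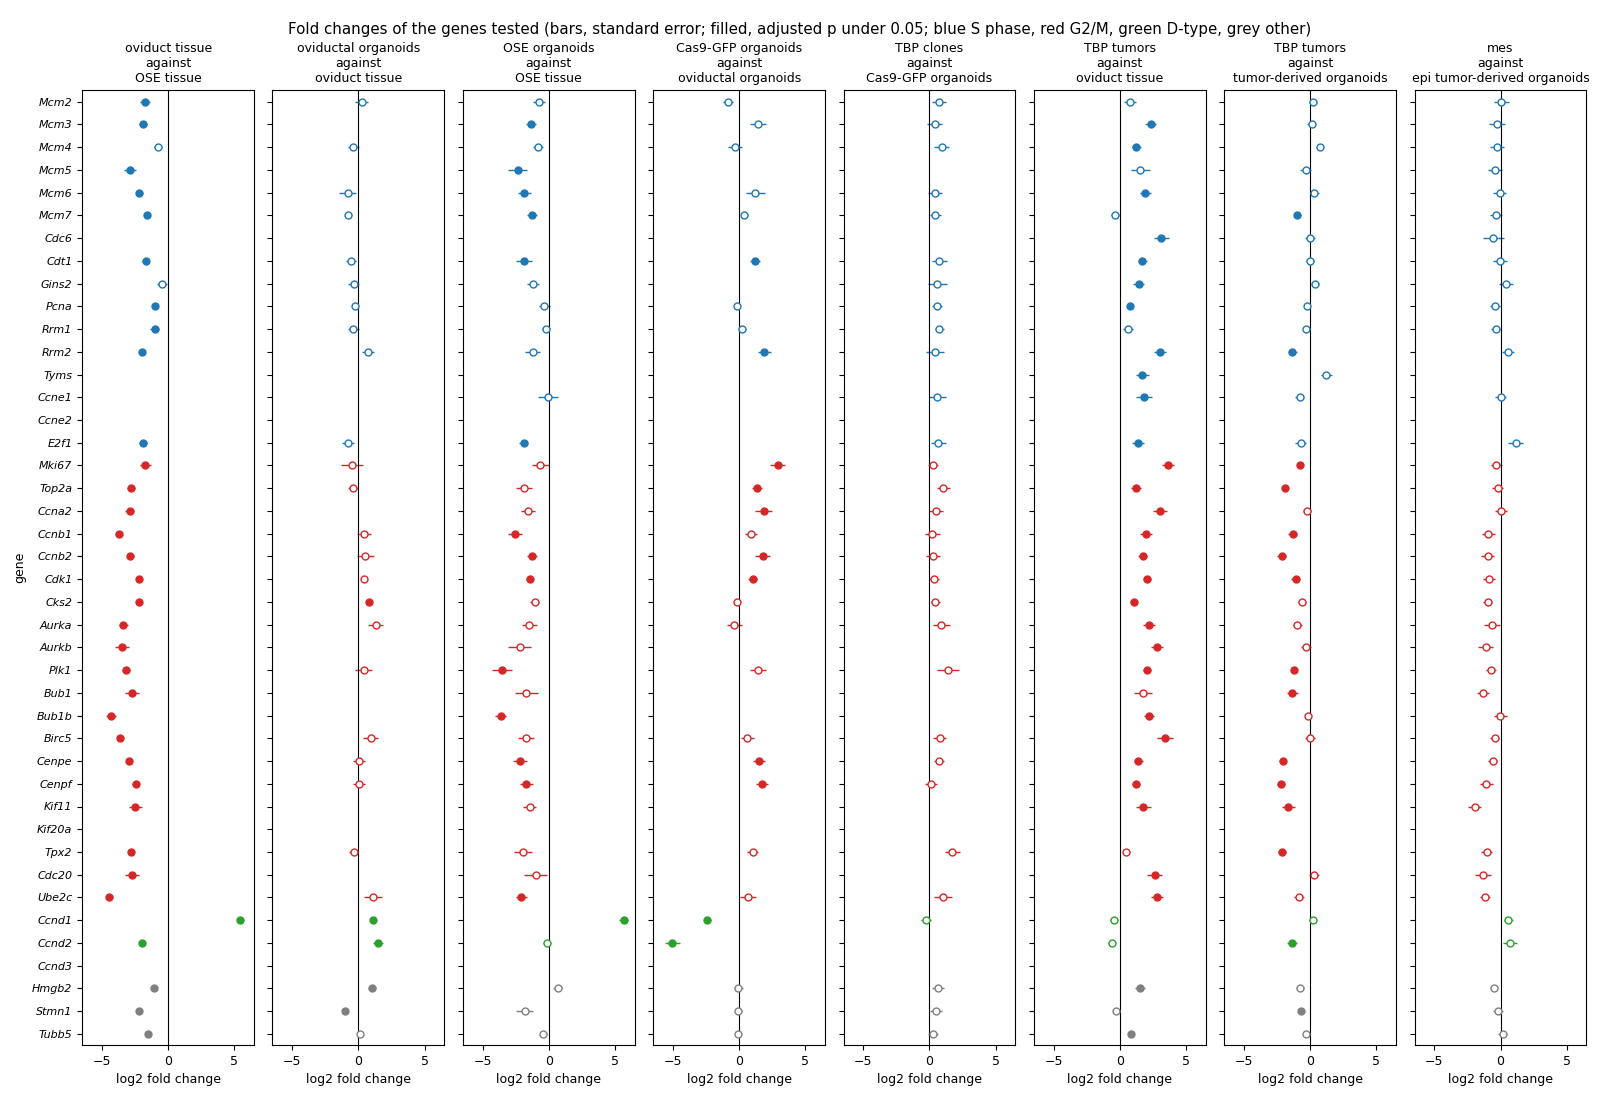
Log2 fold changes (points, with standard errors as bars) of the genes tested in 8 comparisons, filled where the adjusted p was under 0.05, blue for S phase, red for G2/M, green for D-type cyclins and grey for the others. Oviduct against OSE tissue is filled to the left in 33 genes and TBP tumors against oviduct tissue to the right in 30, and TBP clones against Cas9-GFP organoids has no filled point.

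D-type cyclins, which carry growth signals to the retinoblastoma protein, did not follow the other genes. *Ccnd1* (cyclin D1) had 295, 243 and 161 CPM in oviduct tissue and 4.23, 4.66 and 6.37 CPM in OSE tissue, a difference of 5.47 ± 0.29 (adjusted p = 1.61e-09) and the only call in that direction. It had 393, 501 and 639.8 CPM in oviductal organoids, above all tissue libraries (1.12 ± 0.24, adjusted p = 0.00251), and 332 and 198 CPM in OSE organoids, far above OSE tissue (5.66 ± 0.34, adjusted p = 0.000351). The interaction was -4.42 ± 0.46 (adjusted p = 0.000126), the rise being larger in OSE. In Cas9-GFP organoids *Ccnd1* had 100.3, 58.7 and 122 CPM, below all C57BL/6 oviductal lines (-2.42 ± 0.27, adjusted p = 7.63e-05). *Ccnd2* (cyclin D2), which granulosa cells are known to use, had 45.0, 35.5 and 61.1 CPM in oviduct and 168, 187 and 222 CPM in OSE tissue (-2.01 ± 0.20, adjusted p = 8.62e-07). It had 105, 63.5 and 227 CPM in oviductal organoids, 129.7 and 217 CPM in OSE organoids and 5.73, 1.73 and 3.21 CPM in Cas9-GFP organoids, so the Cas9-GFP lines were far below the C57BL/6 lines (-5.06 ± 0.58, adjusted p = 9.37e-05). The Cas9-GFP values stood on 6, 1 and 3 counts, so the size of that fold change is uncertain. The TBP clones differed among themselves, with 33.5, 5.89 and 386 CPM in clones 1, 2 and 3, the value of clone 1 standing on 3 counts. Tumor-derived lines had 144, 81.2, 62.1 and 45.1 CPM and tumors 16.6 to 45.9 (median 32.6) CPM. *Ccnd3* (cyclin D3) stayed at or under 4.29 CPM in the cultures, tissues and tumors and was tested in no comparison.

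**Figure D4:**
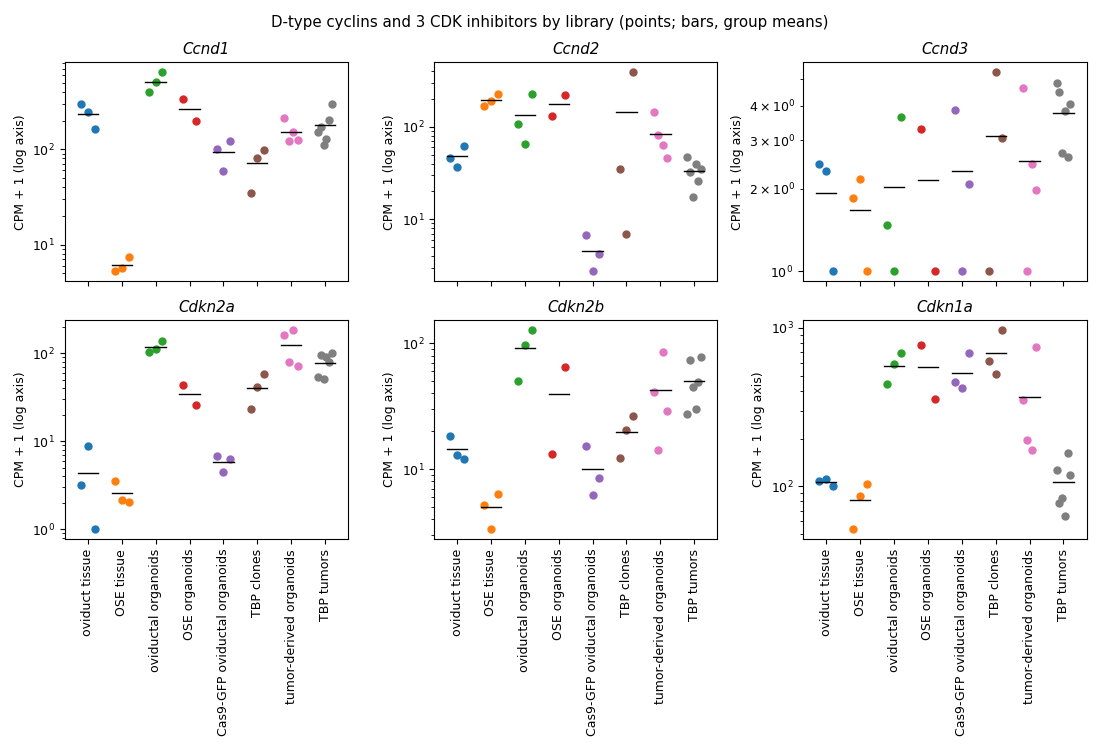
CPM + 1 on log axes of the 3 D-type cyclins and of the CDK inhibitor genes *Cdkn2a*, *Cdkn2b* and *Cdkn1a*, 1 point per library with group means as bars. *Ccnd1* is lowest in OSE tissue (4.23 to 6.37 CPM), *Ccnd2* lowest in Cas9-GFP organoids (1.73 to 5.73 CPM), and *Cdkn2a* is high in C57BL/6 oviductal organoids (104 to 137 CPM) and low in Cas9-GFP organoids (3.45 to 5.73 CPM).

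Oviductal organoids of both strains were compared as a background for the edited clones. Of 28 genes tested, 9 were higher in Cas9-GFP organoids and 2, the D-type cyclins above, were lower (all genes, 13% and 13.3%). The higher genes were 2 of 9 S phase and 7 of 14 G2/M genes (medians 0.38 and 1.19, all genes 0.00). *Mki67* had 57.3, 44.9 and 48.1 CPM in Cas9-GFP organoids and 14.3, 0 and 3.28 CPM in C57BL/6 organoids without overlap (2.91 ± 0.59, adjusted p = 0.00375). *Rrm2* had 217, 95.0 and 356 CPM against 107, 49.1 and 24.3 CPM with overlapping groups (1.89 ± 0.48, adjusted p = 0.0127), and *Cenpf*, a kinetochore protein gene, 69.7, 25.9 and 25.7 CPM against 20.5, 6.77 and 8.53 CPM without overlap (1.73 ± 0.48, adjusted p = 0.0189). The count of 9 rested on several lines: it was 2 without Cas9-GFP organoids 1 or 3 or oviductal organoids 2 or 3, 14 without oviductal organoids 1, and 5 by DESeq2. The lines differ in strain and derivation at once, which cannot be told apart. Oviduct secretory genes summed to 235 to 252 CPM in Cas9-GFP organoids and 14822 to 23112 CPM in C57BL/6 organoids. That gap lay in *Ovgp1* (66.3 to 95.0 against 14636 to 22938 CPM), whereas *Pax8* overlapped (140 to 181 against 165 to 186 CPM). The 5 ciliated cell genes summed to 3.45 to 39.6 and 60.6 to 80.4 CPM. The part of these differences in the result was not tested. Genes listed as CDK inhibitors moved too, read as counts per gene without telling transcripts of one gene apart. *Cdkn2a* had 5.73, 3.45 and 5.35 CPM against 104, 110.0 and 137 CPM (-4.50 ± 0.31, adjusted p = 2.77e-06). *Cdkn2b* had 14.3, 5.18 and 7.49 against 49.6, 96.5 and 127 CPM (-3.22 ± 0.44, adjusted p = 0.000311), and *Cdkn1b* was higher (0.71 ± 0.22, adjusted p = 0.033).

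Between TBP clones and Cas9-GFP organoids no gene of the list was called by edgeR among 30 tested, and none by DESeq2. Of all genes 0.389% were called higher and 0.428% lower (392 and 375 at an unadjusted p under 0.05). The median was 0.58 over the list and -0.01 over all genes, and 29 of 30 values were positive, against 49.4% of all genes. These signs come from the same libraries and are not separate observations. *Tpx2*, which builds the spindle, had 391, 95.9 and 138 CPM in the clones and 93.6, 29.4 and 47.0 CPM in Cas9-GFP organoids without overlap (1.71 ± 0.57, adjusted p = 0.277). *Top2a*, the topoisomerase that untangles chromosomes, had 246, 129 and 356 CPM against 182, 46.6 and 129 CPM with overlap (1.04 ± 0.49, adjusted p = 0.51). Without clone 2 edgeR called 1 gene higher, *Ccnd2* (named after its values were seen), and without the shallow clone 1 it called 0. Among 64 further genes of the pathway tested, 1 was called, the CDK inhibitor gene *Cdkn2a*, at 22.3, 40.2 and 57.0 CPM in clones 1, 2 and 3 (3.15 ± 0.49, adjusted p = 0.0134), clone 1 being under its limit of 33.5 CPM.

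TBP tumors stood above oviduct tissue, the normal tissue of their origin, in 30 of 39 genes tested, and in none below. Of all genes 23.7% were called higher and 22.4% lower. The 30 comprised 11 of 15 S phase genes (median 1.56), 17 of 19 G2/M genes (median 2.04), *Hmgb2* and *Tubb5*, and the median over all genes was 0.08. Beside the 0 genes called lower, DESeq2 called 0 too, and 2756 genes of the table were lower at an unadjusted p under 0.05. *Mki67* rose from 14.5, 10.5 and 1.22 CPM to 97.6 to 149.5 (median 114) CPM (3.64 ± 0.46, adjusted p = 0.000191). *Birc5* had 57.6 to 244 (median 135) CPM against 14.5, 17.1 and 7.33 CPM (3.41 ± 0.60, adjusted p = 0.00125), and *Rrm2* 179 to 578 (median 272) CPM against 27.6, 44.7 and 40.3 CPM (3.04 ± 0.44, adjusted p = 0.000443). Every tumor lay above every oviduct library in these 3 genes.

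The genes of the replicative helicase were called in part. *Mcm3* (2.33 ± 0.41, adjusted p = 0.00133), *Mcm6* (1.93 ± 0.43, adjusted p = 0.00459) and *Mcm4* (1.24 ± 0.33, adjusted p = 0.0109) were higher, while *Mcm7* had 62.9 to 137 (median 81.1) CPM in tumors and 148, 125 and 67.2 CPM in oviduct (-0.34 ± 0.31, adjusted p = 0.383). *Mcm2*, *Mcm5* and *Rrm1*, the large subunit of ribonucleotide reductase, were not called either (0.79, 1.56 and 0.63). *Cdc6*, which loads the helicase with *Cdt1*, had 2 counts over the oviduct libraries and was 9.97 times as high in tumors by summed counts (95% exact interval 2.67 to 83.8). By the same measure *Tyms*, thymidylate synthase, was 3.57 times as high (1.67 to 9.11), *Aurkb* 7.45 times (2.83 to 27.8) and *Bub1b* 4.76 times (2.25 to 12.1), none with more than 3 counts in an oviduct library. *Ccnd1*, *Ccnd2*, *Stmn1* and *Tpx2* were not called (-0.45, -0.62, -0.30 and 0.49). The count of 30 was 25 to 31 with 1 library left out, and without tumor 6 *Stmn1* was called lower. Fibroblast genes summed to 8017 to 42060 CPM in tumors and 3021 to 5417 CPM in oviduct, and myeloid genes to 191 to 770 and 58.0 to 73.3 CPM. Epithelial genes differed between tumors: *Epcam* had 199, 7.87, 366, 13.2, 0 and 1.84 CPM in tumors 1 to 6 and 332, 291 and 238 CPM in oviduct. *Krt8* had 547, 151, 792, 42.6, 213 and 194 CPM against 734, 763 and 626 CPM. The part of this cell content in the result was not tested.

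TBP tumors were next compared with the TBP clones, 39 genes being tested. Called higher were *Mki67* (0.92 ± 0.27, adjusted p = 0.0223), *Ccna2* (1.27 ± 0.39, adjusted p = 0.0298), *Cdc20*, the activator of the anaphase-promoting complex (1.56 ± 0.46, adjusted p = 0.024), and *Ccnd1* (1.18 ± 0.40, adjusted p = 0.0416), and *Tpx2* was lower (-1.80 ± 0.37, adjusted p = 0.00434). These 4 and 1 stand against 20.1% of all genes higher and 11.7% lower. *Ccna2* had 22.3, 22.5 and 34.9 CPM in the clones and 41.5 to 96.4 (median 68.2) CPM in tumors, and *Tpx2* 391, 95.9 and 138 CPM and 38.2 to 65.5 (median 57.3) CPM, neither with overlap. The median of all genes was 0.16 and moved to 0.29 with RLE size factors, so small values here depend on the scaling. The 4 became 2 without clone 1 and without tumor 5 or 6 and 1 without clone 2, and the 1 lower gene became 3, 4 and 2 without clones 1, 2 and 3. *Tpx2* kept its call under each alternative. Of 9 fits with 1 library left out, *Ccnd1* lost its call in 7, *Ccna2* in 5, *Mki67* in 2 and *Cdc20* in 1. The value of *Ccnd1* in clone 1 stood on 3 counts. Both *Cdkn1a*, the p53 target p21 (-2.74 ± 0.33, adjusted p = 0.000255), and *Cdkn1b*, p27 (-2.56 ± 0.36, adjusted p = 0.00058), were lower in tumors. Fibroblast genes summed to 8017 to 42060 CPM in tumors and 0.456 to 22.3 CPM in clones, and epithelial genes to 162 to 2493 and 2067 to 3540.3 CPM, and their part in the result was not tested.

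Tumor-derived organoids had the highest mean sums of both lists among the 8 groups. In the S phase list *Rrm2* made up a large part, with 1238, 859, 692 and 451 CPM in T1-mes, T2-epi, T3-mes and T4-epi. It had 178, 136 and 133 CPM in OSE tissue. The replication licensing and helicase genes of that list went the other way, with a mean sum of 430 CPM in the lines and 690 CPM in OSE tissue. Against TBP clones none of 38 genes was called, with 0% of all genes called in either direction (449 higher and 305 lower at an unadjusted p under 0.05). DESeq2 called 1 gene of the list higher, *Mki67*. The median was 0.89 over the list (0.08 over all genes), with 35 positive values, where 55.2% of all genes were positive. *Mki67* had 231, 237, 128 and 206 CPM in T1-mes, T2-epi, T3-mes and T4-epi and 89.4, 49.3 and 61.1 CPM in the clones (1.64 ± 0.40, adjusted p = 0.478), without overlap. *Cenpe*, a kinetochore motor, had 125, 201, 110.1 and 153 CPM against 55.9, 67.0 and 54.8 CPM, also without overlap (1.28 ± 0.36, adjusted p = 0.506).

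TBP tumors stood below these lines in 15 of 39 genes tested, and above in none. Of all genes 12.3% were called lower and 15.1% higher, and 2266 genes of the table were higher at an unadjusted p under 0.05. *Tyms* was called higher by DESeq2 and by edgeR without tumor 1 or T4-epi, and *Mcm4* without T2-epi (both named after their values were seen). The 15 comprised 11 of 19 G2/M genes (median -1.10), 2 of 15 S phase genes (median -0.03), *Ccnd2* and *Stmn1*, and the median of all genes was 0.02. *Cenpf* had 120.3, 194, 49.5 and 162 CPM in the lines and 23.7 to 32.9 (median 28.3) CPM in tumors (-2.21 ± 0.32, adjusted p = 0.000813). *Top2a* had 695, 630.1, 332 and 563 CPM against 110.3 to 199 (median 144) CPM (-1.91 ± 0.24, adjusted p = 0.000349), and *Ccnb2*, cyclin B2, 159, 187, 73.2 and 269 CPM against 26.1 to 51.0 (median 38.4) CPM (-2.15 ± 0.33, adjusted p = 0.00104). No tumor reached the lowest line in these genes. Other G2/M genes were close: *Birc5* had 143, 179, 103 and 157 CPM against 57.6 to 244 (median 135) CPM (-0.01 ± 0.41, adjusted p = 0.982), and *Cdc20* 0.28. The 15 became 8 without T2-epi and 17 without T3-mes, where *Aurka* (-1.27) and *Ube2c* (-1.05) were called too, and *Top2a*, *Ccnb2*, *Cenpe*, *Cenpf* and *Tpx2* kept their call under each alternative. Fibroblast genes summed to 26.6 to 68.4 CPM in the epi lines, 2520.1 to 4846 CPM in the mes lines and 8017 to 42060 CPM in tumors, and erythroid genes to 0 in all 4 lines and 133 to 7033 CPM in tumors. Epithelial genes summed to 162 to 2493 CPM in tumors and 253 to 3531 CPM in the lines, and the part of these cells in the result was not tested.

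**Figure D5:**
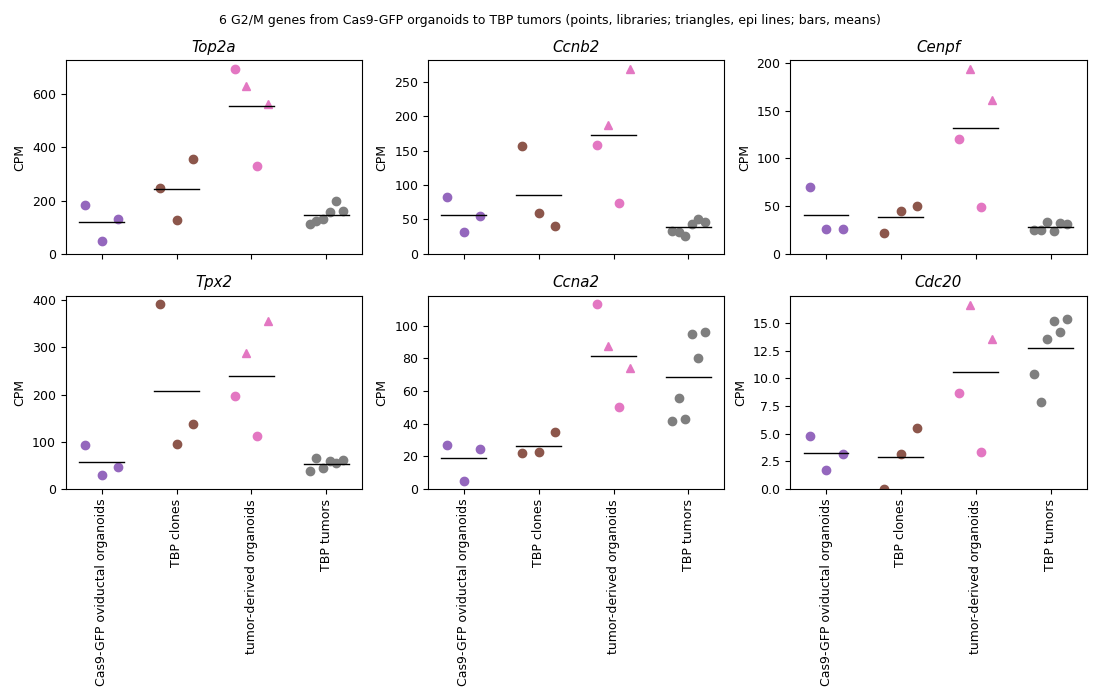
CPM of 6 G2/M genes in Cas9-GFP organoids, TBP clones, tumor-derived organoids (triangles, epi lines) and TBP tumors, 1 point per library with group means as bars. In *Top2a*, *Ccnb2* and *Cenpf* every tumor lies below every tumor-derived line, whereas tumors and lines overlap in *Ccna2* and *Cdc20*.

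Among the tumor-derived lines, 2 mes lines were compared with 2 epi lines. None of 38 genes was called by edgeR or DESeq2, with 1% of all genes higher and 0.123% lower in mes (883 and 495 at an unadjusted p under 0.05). The 19 G2/M genes tested had a median of -0.92, with 18 negative, where 48.8% of all genes were. The 14 S phase genes had a median of -0.16 (all genes 0.02). Both mes lines lay below both epi lines in 14 of the 19, where 22.8% of all genes tested did so, and above in 0 of the 19, where 24.8% did. *Kif11*, a motor that pushes spindle poles apart, had 16.9 and 9.22 CPM in the mes lines T1 and T3 against 58.4 and 43.7 CPM in the epi lines T2 and T4 (-1.96 ± 0.47, adjusted p = 0.133). *Ube2c* had 51.5 and 36.4 CPM in mes against 78.4 and 119 CPM in epi lines (-1.16 ± 0.40, adjusted p = 0.277). *E2f1* was opposite, with 60.6 and 68.4 CPM in mes against 43.2 and 15.0 CPM (1.15 ± 0.56, adjusted p = 0.419). T3-mes had the lowest G2/M sum of the 4 lines. Without T1-mes, *Kif11* was at -2.47 and *Cdk1* at -1.49, from that single mes line assumed to vary like the others. Epithelial genes summed to 253 to 2719 CPM in mes lines, against 3165 to 3531 CPM in epi lines. The low value was that of T3-mes, where *Epcam* was at 28.6, *Cdh1* at 67.9 and *Pax8* at 6.79 CPM. In T1-mes these genes stood at 238, 826 and 157 CPM. The part of this difference in cell content in the result was not tested.

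Besides the 42 genes, 106 further genes of the pathway were read in the same tables (regulators of E2F and B-MYB/FOXM1, CDK inhibitors, other kinases, other replication and other mitosis genes). In oviduct against OSE tissue 58 of 72 tested were lower and 2 higher (all genes, 24.3% and 26.9%), the lower ones including *Cenpa*, the histone of centromeres (-3.68), and *Cdca8* (-3.51) and *Racgap1* (-3.48), which act in the passenger complex and in cytokinesis. In OSE organoids against OSE tissue 37 of 96 were lower and 4 higher (all genes, 18.6% and 14.5%), 3 of the latter being the CDK inhibitor genes *Cdkn1a* (2.83), *Cdkn2a* (4.38) and *Cdkn2b* (3.24). Those 3 inhibitor genes were also higher in oviductal organoids than in oviduct tissue (2.45, 5.19 and 2.69), where 12 of 54 pathway genes were higher and 13 lower, shares near those of all genes (18.7% and 24.2%). *Cdkn2c*, p18, was lower in both cultures (-2.14 and -2.22). In TBP tumors against oviduct tissue 54 of 93 were higher and 5 lower (all genes, 23.7% and 22.4%), with *Cdkn2a* at 50.5 to 101 (median 83.4) CPM against 2.18, 7.89 and 0 CPM (4.56 ± 0.61, adjusted p = 0.000262) and *Cdkn1c* and *Cdkn1b* lower (-2.72 and -1.63). In tumors against tumor-derived organoids 28 of 99 were lower and 3 higher (all genes, 12.3% and 15.1%), led by *Smc4* of condensin (-2.46), *Hmmr* (-2.35) and *Cdkn1b* (-2.07).

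Several genes were too low to follow. *Ccne2*, *Kif20a* and *Ccnd3* passed the filter on low counts in no comparison, with at most 4.25, 4.85 and 4.29 CPM in any library. *Cdc6* and *Tyms* were tested only in comparisons with tumors or tumor-derived organoids. Fewer genes were tested between the organoid groups without tumor-derived lines (28 to 33) than with tumors (39), and a gene that was not tested is not shown to be unchanged.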

How the data were processed

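The deposited table holds CEL-Seq2 read counts per gene symbol in 27 libraries, made by the authors from reads aligned to GRCm38 with BWA (the submitters' processing notes also list DESeq2 1.18.0). Reads that mapped uniquely and in sense were counted without collapsing of molecular identifiers, and the annotation version is not given in the sources used here. A further item of the design is not reported here. A spike-in row (1 row, 1 count) was left out. The 42 members, 106 further genes of the pathway and 65 marker genes (61 found) were chosen with earlier results of these data known.

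Each comparison was fitted over its own libraries with edgeR 4.0.16 (filterByExpr, TMM factors, quasi-likelihood test, Benjamini-Hochberg adjustment over all genes tested) in R 4.3.3, at an adjusted p of 0.05. Members could all be named, and of the further pathway genes the CDK inhibitors and, per comparison and direction, the 3 largest called changes with a mean of at least 20 CPM and no overlap. CPM were scaled with TMM factors over all libraries. Ratios of summed counts carry exact binomial intervals, and 3 counts were taken as the limit of a count of 0. Simulated counts with known changes served to check the tests. Within groups, 37 library pairs differed by a chi-square per gene of at least 2.53, and all were counted as separate libraries. Reads copied from one molecule were not collapsed and raise this value too, so it cannot exclude repeats of one RNA. The labels do not say that all replicates were separate animals, and p-values measure the spread between these libraries. Same-numbered libraries correlated at -0.04 to 0.09, under 0.1, and were not paired. Alternatives were DESeq2 1.42.0, RLE size factors (the median-of-ratios scaling), no filter, all 27 libraries in 1 fit, a replicate block and each library left out. Positions and promoter windows came from RefSeq (GRCm38.p6). Figures were drawn with Python 3.11.15 and matplotlib 3.10.9.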

Additional observations from a re-analysis of the deposited data

Results flagged for a closer look

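Within groups of 4 or 6 libraries, a single library far from the others was found for 2 of 87 pairs of gene and group tested, where chance gives about 1 in 20. *Aurka*, a kinase of the spindle poles, had 17.0 CPM in T3-mes, below the other three lines (62.6 to 64.1 CPM). *Stmn1* had 127 CPM in tumor 6, above the other five tumors (68.2 to 78.8 CPM).

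The step from tissue to culture differed between oviduct and OSE in 7 genes by the interaction term of edgeR. It was -4.42 for *Ccnd1* on the log2 scale, which rose more in OSE, 4.04 for *Plk1*, 3.93 for *Bub1b*, 3.28 for *Ube2c*, 3.09 for *Ccnb1*, 1.97 for *Cks2* and 1.96 for *Cdk1*. OSE tissue, one of the 4 groups in that term, holds granulosa cell RNA, whose part in these values was not tested.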

How the results depend on the processing

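Of 122 calls of single genes in the list, 0 changed direction under any alternative, and of 1458 values under the alternatives 1263 stayed past the threshold and 195 did not. With DESeq2 116 of 122 calls held, with RLE size factors 121, without a filter 119 and with all 27 libraries in 1 fit 87 of 115. The counts of genes called moved as follows. In oviductal organoids against tissue the 4 higher genes were 8 without a filter and 1 in the fit of all 27 libraries, and the 1 lower gene was 2 with RLE factors, 2 without a filter and 0 with all 27. In oviductal against OSE organoids 1 gene was lower by DESeq2 in place of 0. In Cas9-GFP against C57BL/6 organoids the 9 higher genes were 5 by DESeq2 and 2 with all 27. In TBP clones against Cas9-GFP organoids the 0 higher genes were 2 without a filter and 1 with all 27. In tumor-derived organoids against clones 1 gene was higher by DESeq2 and 1 with all 27 in place of 0. In tumors against clones the 1 lower gene was 2 by DESeq2, 2 without a filter and 2 with all 27. In tumors against tumor-derived organoids 1 gene was higher by DESeq2, 1 with RLE factors and 1 with all 27 in place of 0, and the 15 lower genes were 9 with all 27. The interaction had 10 higher genes without a filter in place of 6. The cause of these shifts was not tested.

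The numbers of libraries in the column names were tried as a replicate block, although they share only a number. With only 2 OSE organoid lines, the block fits with them also left out the third, unpaired library. In OSE organoids against tissue the block gave 5 lower genes in place of 14, and leaving out OSE tissue 3 alone gave 4. Pairing gave 2 lower genes in oviductal organoids against tissue in place of 1 and 1 higher gene in clones against Cas9-GFP organoids in place of 0, and 55 of 65 single calls held under the block. In the comparisons with 3 numbers every library of the first group correlated best with its own number, a hint from the data and not from the design.

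With 1 library left out at a time, the genes called higher and lower ranged from 2 to 7 and 1 to 3 in oviductal organoids against tissue, 1 to 2 and 4 to 30 in OSE organoids against tissue, 1 to 1 and 32 to 34 in oviduct against OSE tissue, and 0 to 0 and 0 to 8 in oviductal against OSE organoids. They ranged from 2 to 14 and 2 to 2 in Cas9-GFP against C57BL/6 organoids, 0 to 1 and 0 to 0 in clones against Cas9-GFP organoids, 0 to 0 and 0 to 0 in tumor-derived organoids against clones, and 0 to 0 and 0 to 7 in mes against epi lines. They ranged from 1 to 6 and 1 to 4 in tumors against clones, 25 to 31 and 0 to 1 in tumors against oviduct, 0 to 1 and 8 to 17 in tumors against tumor-derived organoids, and 2 to 21 and 1 to 1 for the interaction. A group left with 1 library was assumed to vary like the other.

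Over all genes, the fit of all 27 libraries called 1057 genes higher (1771 before) in oviductal organoids against tissue, 1565 higher and 1119 lower (2362 and 2133) in oviduct against OSE tissue and 373 higher and 550 lower (1079 and 1110) in Cas9-GFP against C57BL/6 organoids. It called 1982 lower (1228) in tumors against clones, 100 higher and 63 lower (8 and 0) in oviductal against OSE organoids, 169 and 88 (0 and 0) in tumor-derived organoids against clones, 486 and 69 (98 and 12) in mes against epi lines and 17 and 36 (30 and 33) in clones against Cas9-GFP organoids. DESeq2 called 179 and 90 in oviductal against OSE organoids, 67 and 27 in tumor-derived organoids against clones, 396 and 109 in mes against epi lines, 50 and 65 in clones against Cas9-GFP organoids, and 2462 higher (1602) in tumors against tumor-derived organoids. Without a filter 78 and 38, 236 and 47, and 196 and 176 were called in oviductal against OSE organoids, mes against epi and clones against Cas9-GFP organoids. The replicate block without OSE tissue 3 gave 432 higher and 669 lower in OSE organoids against tissue, where leaving out that library alone gave 689 and 1079 (1485 and 1902 with it). Without oviductal organoids 3, 0 and 0 were called in oviductal against OSE organoids with the block and without it. The block gave 45 and 50 in clones against Cas9-GFP organoids and, with T1-mes paired to T2-epi and T3-mes to T4-epi, 212 and 28 in mes against epi lines.

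Of 24 summed levels, 20 moved by less than 1 SD with CPM of the library total. OSE tissue moved from 1118 to 1306 CPM for the S phase list, from 2143 to 2492 CPM for the G2/M list and from 198 to 229.6 CPM for the D-type cyclins, and OSE organoids from 439 to 383 CPM for the D-type cyclins. TBP clone 1, with 82239 counts, limits what low genes show in the clones. Host cells in tumors and ovarian cells in OSE tissue were measured together with the cells of interest.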
